A study of Homo sapiens with 16 samples.

Results

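The genes described here are 10 cytokines and chemokines that are classical targets of the transcription factor NF-kB: IL6, LIF, CXCL8, CXCL1, CXCL2, CXCL3, CCL2, CCL20, IL1A and IL1B. They were picked by symbol from 58735 counted genes, and all 10 were found. Messenger RNA was measured in 2 human cell lines from triple-negative breast cancer, MDA-MB-231 and SUM159PT, both labelled wild type and both transfected with Lipofectamine2000. The siYES1 groups received an siRNA against the Src-family tyrosine kinase YES1, and the siNS groups an siRNA against firefly luciferase, a gene that human cells lack. All cells were collected at 48 h, with 4 libraries in each of the 4 groups. The labels name 1 siRNA per target, and the design text calls the libraries technical replicates, so the p-values reflect no more than the spread among such samples. The series' title links YES1 to centrosome homeostasis, chromosomal stability and the response to therapy; no purpose is stated for these 10 genes.

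NF-kB is a family of dimers, most often of RELA with the NFKB1 product, that inhibitors of the IkB family hold in the cytoplasm. Receptors for interleukin-1, tumor necrosis factor and microbial products activate the IkB kinases, which mark IkB for destruction and let the dimer enter the nucleus and bind kappa-B sites in promoters. The 10 genes encode secreted proteins that call in neutrophils, monocytes and lymphocytes, drive the acute phase response, or signal through gp130 to STAT3. Basal-like breast cancer lines are known to make several of them without added stimulus, and IL6 and CXCL8 have been studied there as autocrine growth and invasion signals. Their messages are short-lived as a group, because AU-rich elements in their 3′ ends recruit decay proteins.

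The promoters of IL6 and the chemokines are shown first, since they hold letters of the kind that NF-kB binds. RefSeq promoter sequences of GRCh38.p14 (300 bases, from 250 before to 50 after the start) were found for 8 of the 10 genes. The letters GGNNNTTCC, searched on both strands and chosen after the promoters had been seen, occurred in 6 of these 8 genes and in 20.1% of 35116 promoters of that length. Capitals mark the match in each 30-base stretch, written 5′ to 3′ on the gene's strand.
IL6, chr7:22727118-22727147, plus strand: atcaaatgtgGGATTTTCCcatgagtctca
CXCL8, chr4:73740468-73740497, plus strand: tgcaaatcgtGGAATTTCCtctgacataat
CXCL1, chr4:73869305-73869334, plus strand: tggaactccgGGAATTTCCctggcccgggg
CXCL2, chr4:74099253-74099282, minus strand: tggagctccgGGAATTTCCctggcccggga
CXCL3, chr4:74038748-74038777, minus strand: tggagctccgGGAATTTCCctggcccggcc
CCL20, chr2:227813753-227813782, plus strand: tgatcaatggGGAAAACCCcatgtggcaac
In CCL20 the match is on the opposite strand. The 4 CXC chemokine promoters carry the same 9 letters, GGAATTTCC, and the stretches of CXCL1, CXCL2 and CXCL3 are nearly identical beyond them. A looser kappa-B form, GGG and CC with any 5 letters between, which overlaps the first in several promoters, was also found in 6 of the 8 genes but is common, at 58.7% of all promoters. The AP-1 letters TGANTCA occurred in the promoters of CXCL8 and IL1A and in 7.71% of all promoters. A match is a description of letters and not of binding.

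The CXC genes lie together on chromosome 4 of GRCh38. CXCL8 (ENSG00000169429) is at 73740506 to 73743716 on the plus strand, and CXCL1 (ENSG00000163739) at 73869393 to 73871242, 125676 bases further on. CXCL3 (ENSG00000163734) is at 74036589 to 74038807 and CXCL2 (ENSG00000081041) at 74097035 to 74099293, both on the minus strand and 58227 bases apart. IL1A (ENSG00000115008, 112773915 to 112784590) and IL1B (ENSG00000125538, 112829751 to 112836903) are neighbours on the minus strand of chromosome 2, with 45160 bases between them. IL6 (ENSG00000136244) is on chromosome 7 at 22725884 to 22732002, LIF (ENSG00000128342) on chromosome 22 at 30240447 to 30246851, CCL2 (ENSG00000108691) on chromosome 17 at 34255218 to 34257203 and CCL20 (ENSG00000115009) on chromosome 2 at 227805739 to 227817564. All are protein-coding, and the values are counts over their exons. Exons of STEAP1B and of an antisense gene overlap IL6 on the other strand, and 2 antisense genes overlap LIF; the strand setting of the counting is not known here, and without strand such reads cannot be told apart. CXCL1 and CXCL2 transcripts are 80.1% identical, but 3 of 1023 windows of 75 bases in CXCL1 occur in CXCL2 and 0 in CXCL3, and 23 of 1144 windows of CXCL2 occur in CXCL3 (2.01%). Reads from those windows are uncertain between the paralogs.

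Depth was 15680459 to 23451253 counts per library. YES1, the targeted gene, lay at 11.7 to 13.4 CPM (counts scaled to library size over all 16 libraries) with siYES1 and 54.3 to 69.1 CPM with siNS in MDA-MB-231, a log2 fold change of -2.20. In SUM159PT it lay at 17.0 to 20.8 CPM with siYES1 and 104 to 158 CPM with siNS, a log2 fold change of -2.96. ESR1 and PGR, the hormone receptors, averaged under 1 CPM in every group, while ERBB2 averaged 101 and 114 CPM in siYES1 and siNS MDA-MB-231 cells and 69.0 and 69.4 CPM in siYES1 and siNS SUM159PT cells. SUM159PT siNS replicate 1 stood apart: its counts differed from the other siNS libraries of that line by a chi-squared of 29.98 to 44.7 per degree of freedom, and those 3 differed among themselves by 6.50 to 12.3. The name SUM159PT rests on titles and labels, since the prefix of the table's column names, S149, may point to a different line.

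Of the 8 genes with enough counts to test in MDA-MB-231, 4 fell with siYES1 and 0 rose: IL6, IL1A, IL1B and CXCL1. Over all 14319 genes tested in that line 52.4% were called at an adjusted p under 0.05, 27.5% lower and 24.9% higher. In SUM159PT 9 genes were tested, IL6 and IL1B fell and CXCL8 rose, against 36.8% of 14469 genes called, 19% lower and 17.7% higher. The share of the listed genes that was called was thus close to the background in both lines. The libraries of the 2 groups did not overlap for 4 of the 8 genes in MDA-MB-231, all lower, against 47.1% of all genes, 28% lower, and for 3 of the 9 in SUM159PT, 2 lower and 1 higher, against 37.3%, 16.8% lower and 20.5% higher. The median log2 fold change was -0.43 over the 8 genes and 0.0015 over all genes in MDA-MB-231, and -0.32 over the 9 genes and -0.03 over all genes in SUM159PT. CCL2 was tested in neither line and CCL20 in SUM159PT alone, for want of counts.

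**Figure D1:**
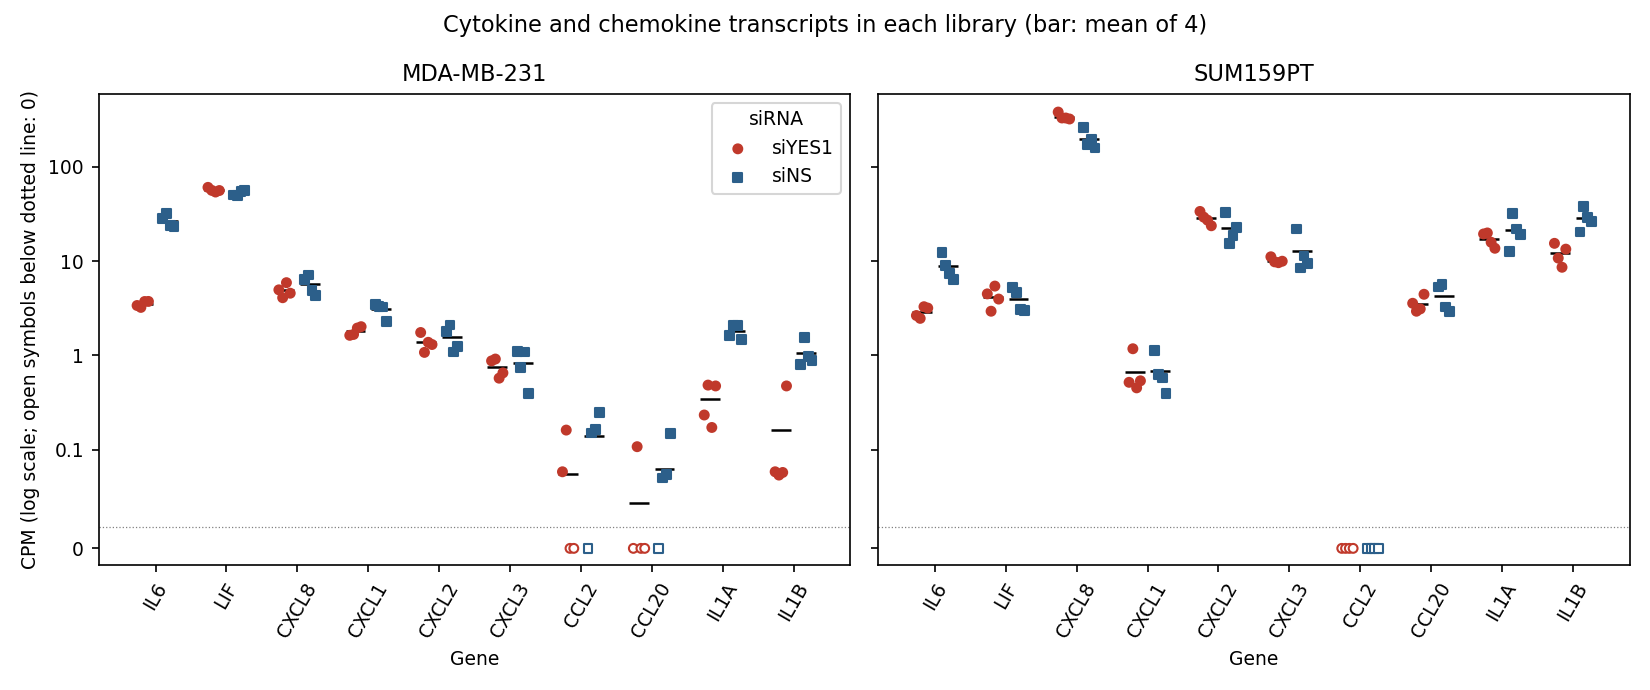
Level of each of the 10 genes in every library, in CPM on a log axis, with siYES1 left of siNS; circles are siYES1 and squares siNS, the left panel is MDA-MB-231 and the right SUM159PT, the short lines are group means of 4 libraries, and open symbols below the dotted line are libraries with 0 counts. IL6 is clearly lower with siYES1 in both panels. LIF has the highest mean CPM of the genes in MDA-MB-231 and CXCL8 in SUM159PT, with CPM not divided by length.

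IL6 had the lowest adjusted p of the 10 genes in each line. It encodes interleukin-6, which binds IL6R and gp130 and activates STAT3. In MDA-MB-231 it had 3.39, 3.23, 3.73 and 3.74 CPM in the siYES1 libraries, against 28.1, 32.1, 23.9 and 23.4 CPM in the siNS libraries. Every siYES1 library was far below every siNS library, and the means were 3.52 ± 0.25 and 26.9 ± 4.04 CPM (SD, n = 4 each). The fitted fitted log2 change was -2.88 ± 0.13 (SE, edgeR adjusted p = 8.338e-11). Fitted changes use scaling within a line, so they differ slightly from ratios of the printed CPM.

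In SUM159PT IL6 had 2.65, 2.47, 3.29 and 3.18 CPM with siYES1, against 12.4, 8.96, 7.44 and 6.43 CPM with siNS. The groups did not overlap. The fitted log2 change was -1.64 ± 0.24 (SE, edgeR adjusted p = 0.000189), and -1.44 without siNS replicate 1, the highest library (edgeR adjusted p = 3.88e-05). With siYES1 the lines came to 3.52 and 2.90 CPM in MDA-MB-231 and SUM159PT, while with siNS they stood at 26.9 and 8.81 CPM. The siYES1 change was lower in MDA-MB-231 than in SUM159PT by 1.34 log2 units (log2 difference -1.34 ± 0.27, SE; edgeR adjusted p = 0.0008428), where 24.3% of 16299 genes were called.

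LIF, the other gp130 cytokine of the list, kept overlapping levels in both lines. It encodes leukemia inhibitory factor, which pairs LIFR with gp130. In MDA-MB-231 it had 60.6, 56.3, 54.1 and 56.1 CPM in siYES1 libraries and 50.3, 49.8, 55.1 and 55.9 CPM in siNS libraries. Of the 4 siYES1 libraries 3 exceeded every siNS library, and the lowest lay within the siNS range. The fitted log2 change was 0.16 ± 0.08 (SE, edgeR adjusted p = 0.0897, unadjusted p = 0.05216). The 95% interval before adjustment, 0.01 to 0.31, is a normal approximation and is narrower than that test implies. In SUM159PT the values were 4.50, 2.95, 5.44 and 3.97 CPM with siYES1 and 5.27, 4.61, 3.07 and 3.02 CPM with siNS, and the log2 fold change was 0.04 (95% interval -0.50 to 0.58).

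The ratio of the gp130 ligands is given as a description. In MDA-MB-231 the count of LIF per count of IL6 ran from 14.5 to 17.9 in siYES1 libraries, with a median of 16.2, against 1.55 to 2.39 and a median of 2.05 in siNS libraries. In SUM159PT it ran from 1.19 to 1.70 with siYES1 and from 0.413 to 0.514 with siNS. Counts are not divided by length here, so the ratio compares libraries and not the genes' levels.

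CXCL8 was the gene of the list that rose, in SUM159PT. It encodes interleukin-8, a neutrophil attractant that acts through CXCR1 and CXCR2. In SUM159PT it had 381, 330, 330 and 322 CPM in siYES1 libraries, against 262, 174, 197 and 158 CPM in siNS libraries. All 4 siYES1 libraries exceeded all 4 siNS libraries, with means of 341 ± 27.3 and 198 ± 45.5 CPM (SD, n = 4 each). The fitted log2 change was 0.74 ± 0.13 (SE, edgeR adjusted p = 0.0007108), and 0.90 without siNS replicate 1 (edgeR adjusted p = 9.593e-09).

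In MDA-MB-231 CXCL8 was a minor transcript, with 4.96, 4.10, 5.92 and 4.57 CPM in siYES1 libraries and 6.40, 7.13, 4.89 and 4.35 CPM in siNS libraries. The groups overlapped. The fitted log2 change was -0.17 ± 0.18 (SE, edgeR adjusted p = 0.444; 95% interval -0.51 to 0.18). The change differed between the lines by -1.01 ± 0.23 log2 units, MDA-MB-231 minus SUM159PT (SE; edgeR adjusted p = 0.00222).

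CXCL1, CXCL2 and CXCL3, the GRO chemokines, attract neutrophils through CXCR2. In MDA-MB-231 CXCL1 had 1.64, 1.67, 1.95 and 2.02 CPM in siYES1 libraries, against 3.44, 3.31, 3.26 and 2.28 CPM in siNS libraries. It fell without overlap, with a log2 fold change of -0.70 ± 0.20 (SE; edgeR adjusted p = 0.007519), though the highest siYES1 library and the lowest siNS library were close. In the fit of all 16 libraries together its log2 fold change was -0.75 and missed the threshold (edgeR adjusted p = 0.07146). In SUM159PT CXCL1 was scarce, at 0.519, 1.18, 0.454 and 0.538 CPM with siYES1 and 1.14, 0.623, 0.576 and 0.392 CPM with siNS, and the 95% interval of its log2 fold change, -1.10 to 0.98, was wide.

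CXCL2 and CXCL3 missed the threshold in both lines. In SUM159PT, where they are abundant, CXCL2 had 33.7, 29.3, 27.2 and 23.7 CPM with siYES1 and 32.7, 15.5, 18.9 and 22.6 CPM with siNS. The highest siNS library, replicate 1, lay near the top of the siYES1 values and the other 3 below all of them. The fitted log2 change was 0.30 ± 0.20 (SE, edgeR adjusted p = 0.2574), and 0.53 without that library (edgeR adjusted p = 0.00483). CXCL3 had 11.1, 9.84, 9.64 and 9.99 CPM with siYES1 and 21.98, 8.47, 11.3 and 9.40 CPM with siNS, with a log2 fold change of -0.38 ± 0.26 (SE; edgeR adjusted p = 0.2811), and 0.0064 without siNS replicate 1 (edgeR adjusted p = 0.98). In MDA-MB-231 CXCL2 lay at 1.08 to 1.75 CPM with siYES1 and 1.09 to 2.11 CPM with siNS, and CXCL3 at 0.574 to 0.916 CPM with siYES1 and 0.396 to 1.10 CPM with siNS.

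The proportions among the CXC genes of SUM159PT are also given as a description. The count of CXCL8 per count of CXCL2 ran from 11.3 to 13.6 in siYES1 libraries and from 7.005 to 11.2 in siNS libraries. CXCL2 per CXCL3 ran from 2.38 to 3.03 with siYES1 and from 1.49 to 2.40 with siNS, with a slight overlap. Neither ratio was tested.

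**Figure D2:**
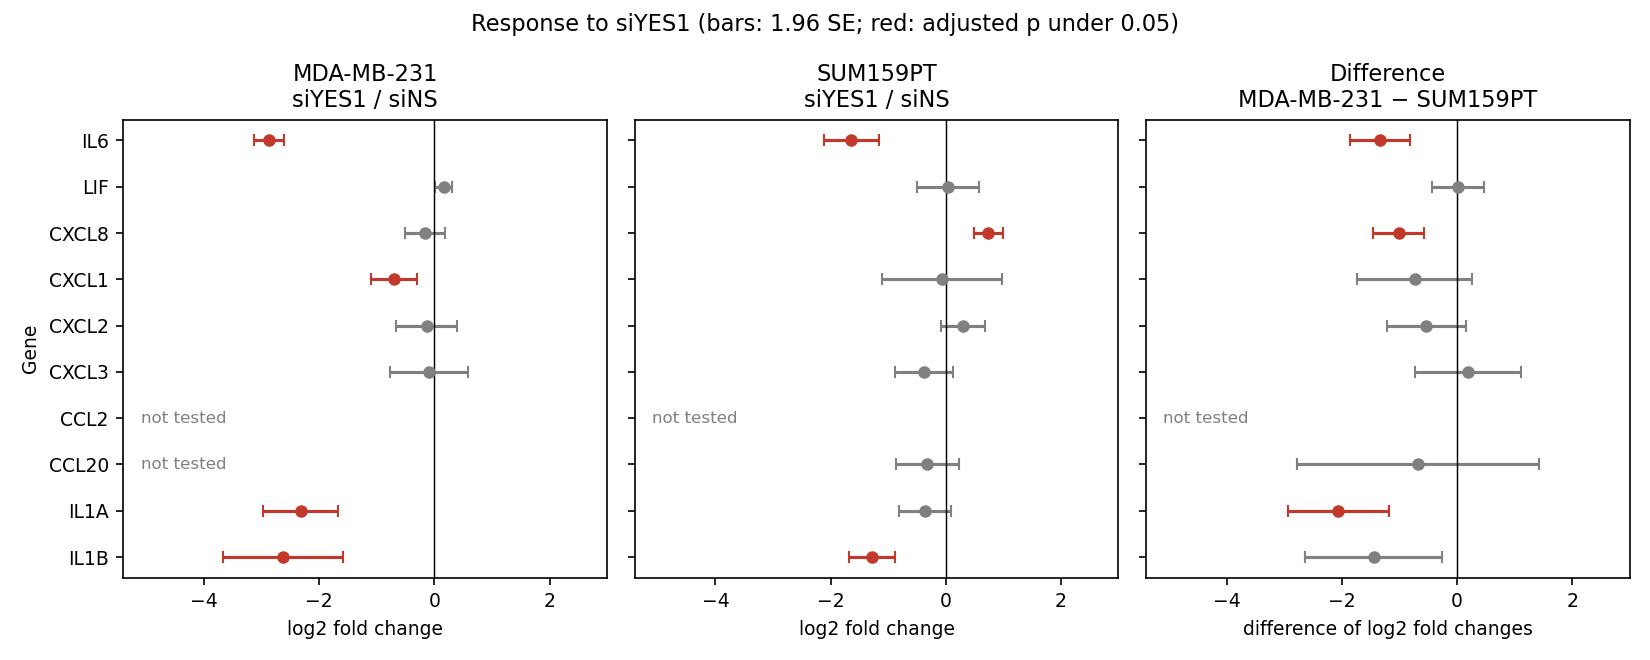
Fitted log2 fold change of siYES1 over siNS for each gene tested in MDA-MB-231 and SUM159PT, and the difference between the lines in the right panel, with 95% intervals before adjustment (from the SE, normal approximation); red marks an adjusted p under 0.05. IL6 and IL1B lie left of 0 in both lines, CXCL8 lies right of 0 in SUM159PT, and IL1A lies far left in MDA-MB-231 alone.

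The CC chemokines gave few counts. CCL20, which draws lymphocytes and dendritic cells through CCR6, had 3.58, 2.95, 3.12 and 4.45 CPM in siYES1 SUM159PT libraries and 5.33, 5.66, 3.26 and 2.91 CPM in siNS libraries. The groups overlapped, and the fitted log2 change was -0.32 ± 0.28 (SE, edgeR adjusted p = 0.405; 95% interval -0.87 to 0.23). In MDA-MB-231 it had 0, 2, 0 and 0 counts with siYES1 and 0, 1, 1 and 3 counts with siNS. CCL2, a monocyte attractant that binds CCR2, had 1, 3, 0 and 0 counts with siYES1 and 0, 3, 3 and 5 counts with siNS in MDA-MB-231, and 0 counts in all 8 SUM159PT libraries. A total of 0 allows up to 0.0362 CPM over the siYES1 group and 0.0424 CPM over the siNS group of SUM159PT (3 counts, counting error only). These limits use total counts without the scaling of the printed CPM, so the gap between them is not a difference in printed CPM. No change could be detected for CCL2 at this depth.

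IL1A and IL1B encode interleukin-1 alpha and beta, which bind the same receptor; IL1B needs cleavage by caspase-1 to become active, whereas the IL1A precursor already signals. In MDA-MB-231 IL1A had 0.234, 0.485, 0.172 and 0.475 CPM in siYES1 libraries, against 1.63, 2.06, 2.07 and 1.48 CPM in siNS libraries. Every siYES1 library was below every siNS library, and the fitted log2 change was -2.32 ± 0.33 (SE, edgeR adjusted p = 1.914e-05). IL1B had 0.0584, 0.0539, 0.0574 and 0.475 CPM with siYES1, which are 1, 1, 1 and 8 counts, against 0.794, 1.56, 0.979 and 0.890 CPM with siNS, which are 18, 31, 18 and 18 counts. The fitted log2 change was -2.63 ± 0.53 (SE, edgeR adjusted p = 0.0005602) and -4.01 without siYES1 replicate 4, which held most of the siYES1 counts (edgeR adjusted p = 3.331e-05). Both genes averaged under 2 CPM in both groups of this line.

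In SUM159PT, where both are abundant, IL1B was called lower and IL1A was not. IL1B had 15.5, 10.8, 8.62 and 13.4 CPM in siYES1 libraries, against 20.4, 38.1, 29.2 and 26.1 CPM in siNS libraries. The groups did not overlap, and the fitted log2 change was -1.28 ± 0.21 (SE, edgeR adjusted p = 0.0003671). IL1A had 19.4, 19.9, 15.9 and 13.7 CPM with siYES1 and 12.6, 31.9, 21.98 and 19.1 CPM with siNS, and the lowest of all 8 was siNS replicate 1. Its fitted log2 change was -0.36 ± 0.23 (SE, edgeR adjusted p = 0.2487), and -0.55 without that library (edgeR adjusted p = 0.01093). IL1B per count of IL1A ran from 0.541 to 0.979 with siYES1 and from 1.19 to 1.62 with siNS, without overlap; the ratio was not tested.

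Between lines, the siYES1 change of IL1A differed by -2.06 ± 0.45 log2 units, MDA-MB-231 minus SUM159PT (SE; edgeR adjusted p = 0.001947). For IL1B the difference was -1.45 ± 0.61 and missed the threshold (SE; edgeR adjusted p = 0.08833). It passed without MDA-MB-231 siYES1 replicate 4, at -2.83 (edgeR adjusted p = 0.008172), and without SUM159PT siNS replicate 2, at -1.62 (edgeR adjusted p = 0.04227). In all, 3 of 9 tested genes differed between the lines, IL6, CXCL8 and IL1A, all with a lower change in MDA-MB-231 and 0 with a higher one, against 15.4% of all genes lower and 8.85% higher. The median of the 9 differences was -0.73, against -0.03 for all genes.

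**Figure D3:**
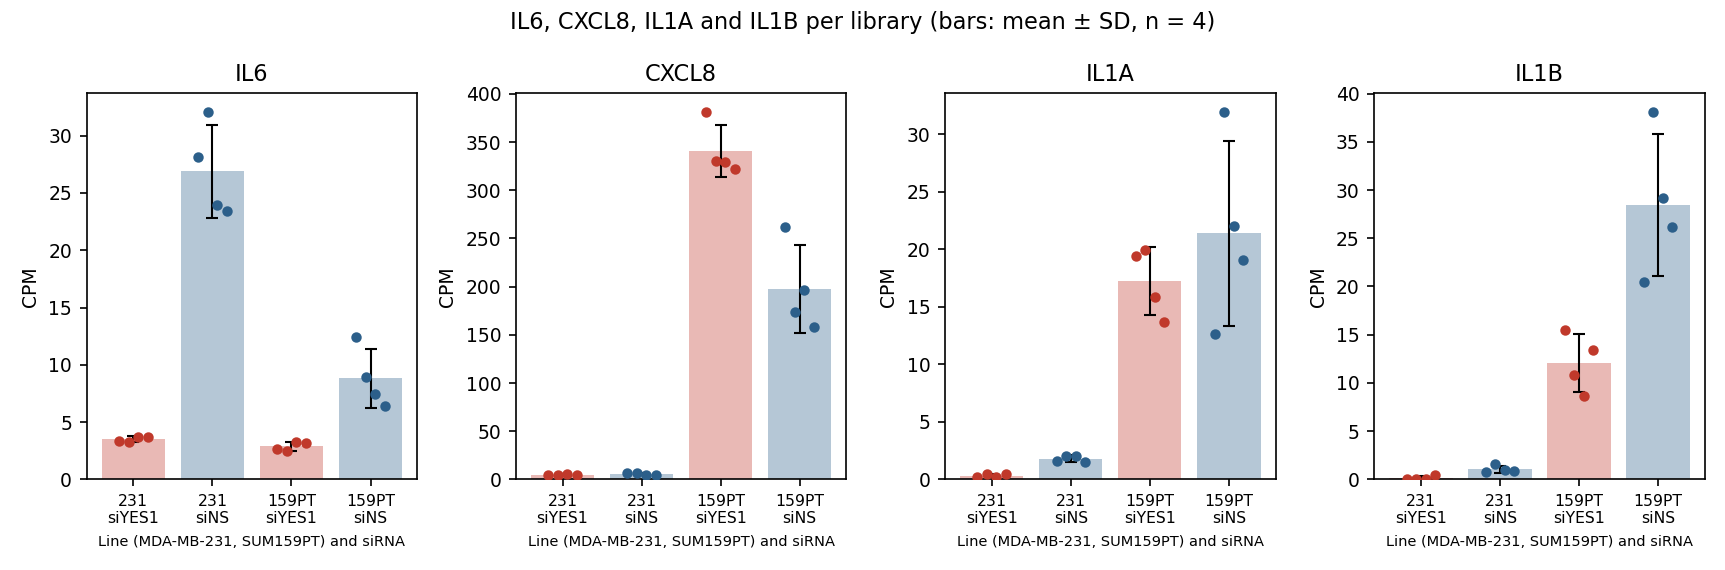
CPM of IL6, CXCL8, IL1A and IL1B in each library of both lines, on linear axes from 0, with siYES1 left of siNS; points are libraries and bars show the mean ± SD of 4. The siYES1 and siNS points do not overlap for IL6 and IL1B in either line, for IL1A in MDA-MB-231 and for CXCL8 in SUM159PT.

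The lines made different sets of these proteins' messages before any knockdown effect. With siNS, 9 of 9 tested genes differed between MDA-MB-231 and SUM159PT, as did 77% of all genes: IL6, LIF and CXCL1 were higher in MDA-MB-231, against 39% of all genes, and the other 6 lower, against 38%. All 9 were without overlap between the lines, against 66.7% of all genes, 34.2% higher and 32.5% lower. LIF averaged 52.8 CPM in MDA-MB-231 and 3.99 CPM in SUM159PT, a log2 difference of 3.74, whereas CXCL8 averaged 5.69 CPM in MDA-MB-231 and 198 CPM in SUM159PT, a log2 difference of -5.11. IL1B differed by -4.75. CCL20 differed by -5.97, a value that rests on 0, 1, 1 and 3 counts in siNS MDA-MB-231 libraries and ran from -6.75 to -5.53 when 1 library was left out. Line and any difference in how the lines were handled cannot be told apart.

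Per kilobase of exon, LIF at 13.3 CPM and IL6 at 13.0 CPM led in siNS MDA-MB-231 cells and overlapped in range, followed by CXCL8 at 2.50 and CXCL1 at 2.37, which also overlapped. With siYES1, LIF alone led at 14.3 CPM per kilobase, and IL6 came after CXCL8, at 1.70 against 2.15, within overlapping ranges. In SUM159PT CXCL8 led in both groups, at 149.9 CPM per kilobase with siYES1 and 86.9 with siNS. CXCL2 came next at 19.0 with siYES1 and 14.9 with siNS; in the siNS libraries the ranges of CXCL2, IL1A (10.1), IL1B (9.19), CXCL3 (5.76), IL6 (4.26) and CCL20 (2.69) each overlapped the next, so their order is not fixed by these data.

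Summed over the 10 genes, MDA-MB-231 libraries averaged 69.7 CPM with siYES1 and 93.9 CPM with siNS, and SUM159PT libraries 420.0 CPM with siYES1 and 300.5 CPM with siNS. IL6 made up 5.06% of that sum in siYES1 and 28.5% in siNS MDA-MB-231 cells. CXCL8 made up 81.2% in siYES1 and 65.4% in siNS SUM159PT cells, while IL1B made up 2.86% and 9.80%. LIF made up 81.4% in siYES1 and 56.4% in siNS MDA-MB-231 cells, though LIF itself was not called there. A share can rise because another gene falls. CPM is not divided by length here, so the shares compare groups and not the genes' levels.

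Other immune cells make the same cytokines, so leukocyte markers were read beside the members. MS4A1, a B cell marker, had 0 counts in every library, and PTPRC, the general leukocyte antigen, averaged under 1 CPM in every group and had 0 counts in all siYES1 SUM159PT libraries. The 9 leukocyte markers summed to 7.17 to 10.9 CPM with siYES1 and 18.5 to 22.6 CPM with siNS in MDA-MB-231, and to 1.10 to 2.21 CPM with siYES1 and 5.23 to 7.37 CPM with siNS in SUM159PT. Most of this was CSF1R and CD14, and CD14 averaged 1.78 CPM with siYES1 and 8.02 CPM with siNS in MDA-MB-231, and 0.811 CPM with siYES1 and 3.76 CPM with siNS in SUM159PT. In MDA-MB-231 LYZ was higher without overlap, at 0.916 to 1.67 CPM with siYES1 and 0.151 to 0.706 CPM with siNS, and CD79A averaged 0.160 CPM with siYES1 and 0.0959 CPM with siNS. The 4 fibroblast-like markers summed to 24.1 to 29.2 CPM with siYES1 and 60.5 to 71.1 CPM with siNS in MDA-MB-231, and to 657 to 769 CPM with siYES1 and 1688 to 1949 CPM with siNS in SUM159PT, where COL1A1 made up most of the sum. Not all 4 were lower: DCN averaged 22.6 CPM with siYES1 and 16.3 CPM with siNS in SUM159PT, LUM averaged 2.97 CPM with siYES1 and 2.87 CPM with siNS in MDA-MB-231, and LUM had 0 counts in SUM159PT. Within each line both sums were lower with siYES1, as IL6 and IL1B were. Between the siNS groups of the lines IL6 and IL1B differed in opposite directions, so neither sum followed both genes. The part of these markers in the result was not tested. In bulk libraries fewer cells making a message and less message per cell cannot be told apart.

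Of the 11 subunit and IkB genes, 5 rose and 0 fell in MDA-MB-231 (median log2 fold change 0.33), and 3 rose and 2 fell in SUM159PT (median 0.01). Over all genes 24.9% rose and 27.5% fell in MDA-MB-231, and 17.7% rose and 19% fell in SUM159PT. Without MDA-MB-231 siNS replicate 1 the list had 6 risen and 3 fallen genes in that line. RELA, the main activating subunit, rose by 0.31 log2 units in MDA-MB-231 (edgeR adjusted p = 0.00077) and showed a log2 change of 0.13 in SUM159PT (edgeR adjusted p = 0.2817). NFKB1, its usual partner, rose by 0.51 in MDA-MB-231 and by 0.45 in SUM159PT. RELB had log2 fold changes of -0.23 in MDA-MB-231 and -0.34 in SUM159PT, neither called. Without siNS replicate 1 of the line it was called lower in both (edgeR adjusted p = 0.002459 and 9.819e-05). NFKB2 rose by 0.34 in MDA-MB-231. In SUM159PT its change was -0.24 and not called, but it was called lower, at -0.36, without siNS replicate 1 (edgeR adjusted p = 0.0001021). NFKBIA, the IkB alpha inhibitor and itself a quick NF-kB target, averaged 53.1 CPM with siYES1 and 54.7 CPM with siNS in MDA-MB-231, and 237 CPM with siYES1 and 222 CPM with siNS in SUM159PT, with log2 fold changes of 0.01 and 0.05 that missed the threshold and changed sign with the scaling.

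NFKBIZ, a nuclear IkB protein that is needed for IL6 induction in mouse macrophages, rose by 0.42 in MDA-MB-231 and fell by 0.82 in SUM159PT, a difference between lines of 1.15. BCL3, another nuclear IkB protein, rose by 0.74 in SUM159PT. Among 21 upstream kinases and adaptors, 5 rose and 7 fell in MDA-MB-231, and 3 rose and 6 fell in SUM159PT. Among all genes tested, 24.9% rose and 27.5% fell in MDA-MB-231, and 17.7% rose and 19% fell in SUM159PT. TAB2, an adaptor of the kinase TAK1, rose in both, by 0.85 and 0.79, while TAB3, its relative, fell by 0.98 in MDA-MB-231. IRAK2, a kinase of the interleukin-1 receptor pathway, fell by 0.74 in MDA-MB-231, and MAP3K14, the kinase of the noncanonical pathway, fell by 1.04 in SUM159PT. Of 12 feedback inhibitors, 3 rose and 3 fell in MDA-MB-231, and of 11 tested in SUM159PT 3 rose and 1 fell, or 3 and 4 with total counts as the scaling and 6 and 1 in the joint fit; the inhibitor TNFAIP3 (A20) had log2 fold changes of 0.18 in MDA-MB-231 and -0.07 in SUM159PT, neither called.

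Among 32 further NF-kB targets, MDA-MB-231 had 26 tested, of which 16 fell and 1 rose (median -0.46, against 0.0015 for all genes). Of all genes tested in that line 27.5% fell and 24.9% rose. The list was chosen with earlier results of these data known, so its count beside these shares is a description and not a test. PTGS2, which makes prostaglandins, averaged 1.23 CPM with siYES1 and 5.54 CPM with siNS, a log2 fold change of -2.12. IL11, a further gp130 ligand, averaged 8.26 CPM with siYES1 and 28.9 CPM with siNS, a log2 fold change of -1.75, and CXCL11, a T cell attractant, fell by 1.53. ICAM1, an adhesion molecule, fell by 0.28 (edgeR adjusted p = 0.01959), a call that was lost without siYES1 replicate 4 (edgeR adjusted p = 0.09043) or siNS replicate 4 (edgeR adjusted p = 0.06377).

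In SUM159PT 22 of these targets were tested, with 5 risen, 6 fallen and a median of -0.08. Of all genes tested in that line 17.7% rose and 19% fell, with a median of -0.03. The hematopoietic growth factor genes led the fall: CSF3 averaged 1.07 CPM with siYES1 and 7.09 CPM with siNS (log2 fold change -2.77), and CSF2 averaged 1.25 CPM with siYES1 and 3.86 CPM with siNS (log2 fold change -1.67). IL11 fell here too, by 1.32. For PTGS2 the log2 change was -0.45 (edgeR adjusted p = 0.3458), and for ICAM1 it was 0.00 (edgeR adjusted p = 0.9954). PTGS2 differed between lines by -1.75 (edgeR adjusted p = 0.00212).

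**Figure D4:**
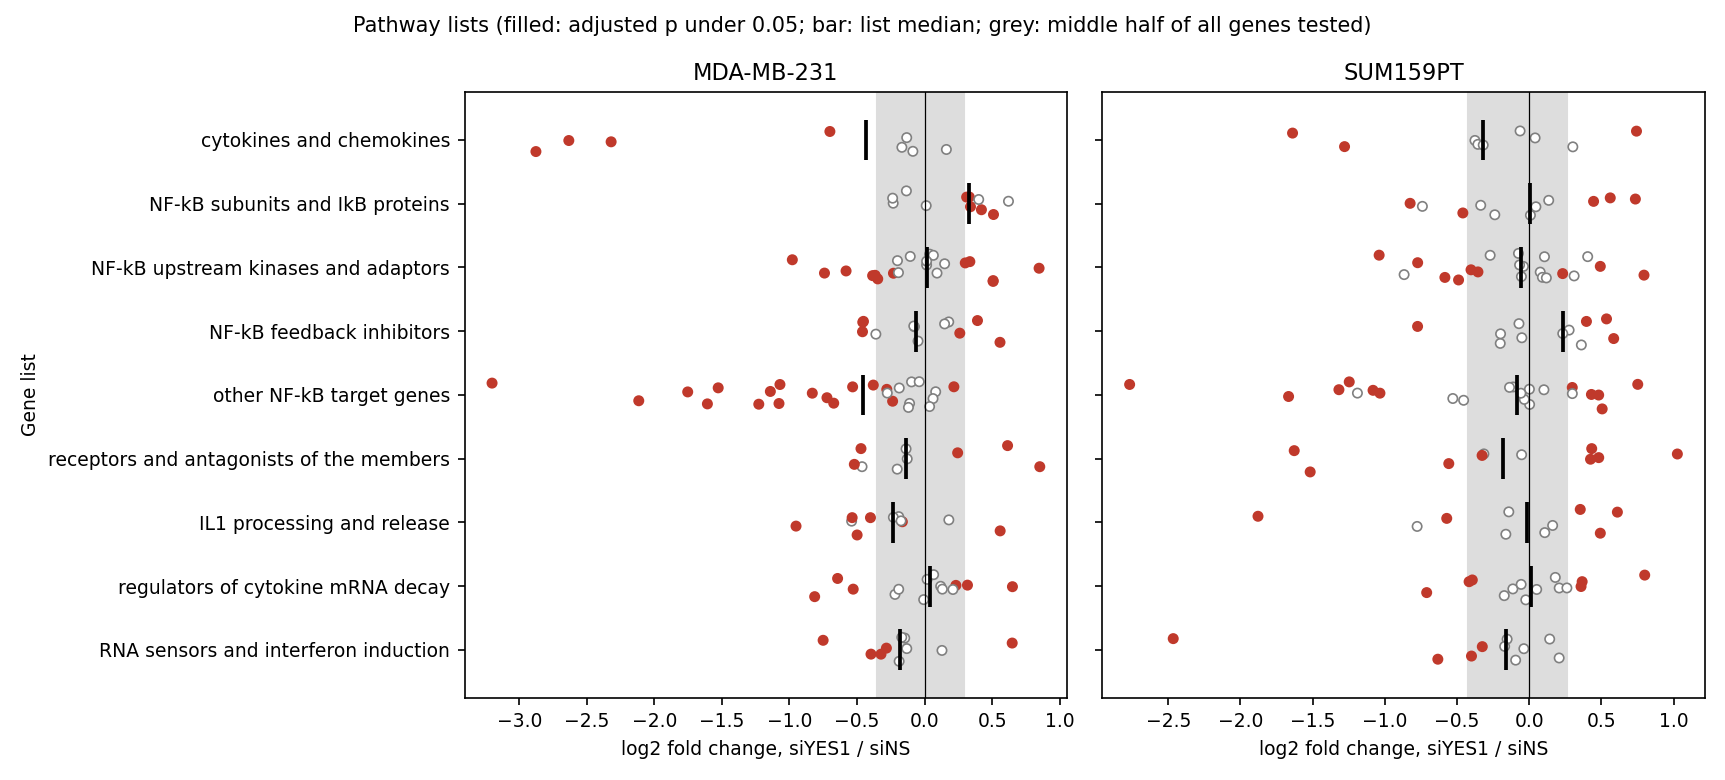
Fitted log2 fold changes of siYES1 over siNS for the tested genes of each list, in MDA-MB-231 and SUM159PT; filled points are genes called at an adjusted p under 0.05, the short line is the list's median and the grey band is the interquartile range of all genes tested. The further NF-kB targets of MDA-MB-231 lie mostly left of 0, with 16 of 26 called lower, against 27.5% of all genes. The subunit and IkB genes of that line lie mostly right of 0, with 5 of 11 called higher, against 24.9% of all genes. The lists were chosen with earlier results of these data known, so these shares are a description and not a test.

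On the receptor side, the cells held the signal transducers for IL6, LIF and IL-1 but not the main chemokine receptors. CXCR1, CXCR2 and CCR6 had 0 counts in every library. ACKR1, also on this list, averaged 7.59 CPM with siYES1 and 21.1 CPM with siNS in SUM159PT. Its log2 fold change there was -1.52 (edgeR adjusted p = 0.0001676). Of the receptor and signalling genes, 3 rose and 2 fell of 9 tested in MDA-MB-231, and 4 rose and 4 fell of 10 tested in SUM159PT. The shares over all genes were 24.9% risen and 27.5% fallen in MDA-MB-231, and 17.7% risen and 19% fallen in SUM159PT. STAT3, the transcription factor downstream of gp130, rose by 0.61 in MDA-MB-231 and by 0.48 in SUM159PT. SOCS3, a STAT3 target that shuts gp130 signalling off, averaged 66.6 CPM with siYES1 and 38.3 CPM with siNS in MDA-MB-231, a log2 fold change of 0.85. IL6R averaged 102 CPM with siYES1 and 48.6 CPM with siNS in SUM159PT, a log2 fold change of 1.03 that differed between lines by -1.58. IL1R1, the signalling receptor for interleukin-1, fell by 0.52 in MDA-MB-231, and IL1R2, its decoy, fell by 1.63 in SUM159PT.

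For interleukin-1 release, 1 gene rose and 5 fell of 11 tested in MDA-MB-231, and 3 rose and 2 fell of 10 in SUM159PT. Beside this list and the next ones, 24.9% of all genes rose and 27.5% fell in MDA-MB-231. In SUM159PT 17.7% of all genes rose and 19% fell. PYCARD, the inflammasome adaptor, fell by 0.95 in MDA-MB-231, and in SUM159PT the DNA sensor AIM2 fell by 1.88 and caspase-1 (CASP1) by 0.57. Among 14 regulators of message decay, 3 rose and 3 fell in each line, and 4 rose and 6 fell in SUM159PT without siNS replicate 1. ZFP36L1, which destabilises AU-rich messages, fell by 0.81 in MDA-MB-231, its relative ZFP36L2 rose by 0.65 there and fell by 0.71 in SUM159PT, and ZFP36 (tristetraprolin) rose by 0.80 in SUM159PT. Of the RNA sensing and interferon induction genes, 1 rose and 4 fell of 10 tested in MDA-MB-231 (1 and 2 in the joint fit) and 0 rose and 4 fell of 10 in SUM159PT, where TMEM173 (STING) fell by 2.47 and MAVS by 0.63. IFNB1 had 0 counts in every library.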

How the data were processed

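The authors deposited raw gene counts, 1 table per line. The submitters' processing notes name HISAT2 2.0.5, featureCounts 1.5.0-p3 and the build hg38. Per the labels' protocols RNA was selected with poly-T beads and primed with random hexamers; they do not say whether strand was kept. Which annotation release was counted, and with which strand setting, is not given in the sources used here. Symbols and positions came from GENCODE 29, where all 58735 gene IDs were found; promoters came from RefSeq GRCh38.p14. Depth was 15680459 to 23451253 counts per library.

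Each line was fitted on its 8 libraries with edgeR 4.0.16 (R 4.3.3): TMM scaling, filterByExpr (minimum count 10), quasi-likelihood F test, Benjamini-Hochberg adjustment over all genes tested, called under 0.05. The difference between lines is the line-by-siRNA interaction in a fit of all 16 libraries, and the siNS contrast used that fit. SE is the size of the log2 fold change divided by the square root of F. The 95% intervals are normal approximations from this SE, so they are somewhat narrower than the F test implies. Printed CPM is scaled over all 16 libraries. Alternatives were RLE scaling, total counts, limma-voom (limma 3.58.1), DESeq2 1.42.0, no filter, a filter at 1 CPM on average, a replicate block, a joint fit and leaving out each library. The fit was tested on simulated data.

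The genes and lists were chosen with earlier results of these data known. Named genes are YES1, the 10 genes, RELA, NFKB1, NFKB2, RELB, NFKBIA, TNFAIP3, ICAM1 and PTGS2, up to 3 called genes of largest change per list and line at a mean of at least 1 CPM, and the 3 coding genes most like IL6 and CXCL8; others were chosen after their values were seen. Libraries of a group were not duplicates (chi-squared per degree of freedom 2.15 to 44.7).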

Additional observations from a re-analysis of the deposited data

Results flagged for a closer look

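The siYES1 change differed between MDA-MB-231 and SUM159PT, by the test of the difference itself, for 24 of the named genes. Values are the log2 change in MDA-MB-231 minus that in SUM159PT, called at an edgeR adjusted p under 0.05. Of all 16299 genes tested, 24.3% were called. Many of the named genes were picked for a large called change within a line of these same data. Their count therefore cannot be set against that share. Among the cytokines these were IL6 (-1.34), CXCL8 (-1.01) and IL1A (-2.06). YES1 itself differed by 0.66. In the NF-kB pathway NFKB2 (0.48), NFKBIZ (1.15), BCL3 (-1.07), TAB3 (-1.04), MAP3K14 (1.45), IRAK2 (-0.94), TNIP1 (-0.71) and CYLD (-0.92) differed, and among further targets PTGS2 (-1.75) and CSF2 (1.46). IL6R differed by -1.58, SOCS3 by 0.81, AIM2 by 1.55 and GSDME by -1.24. ZFP36 (-0.78), ZFP36L1 (-0.80) and ZFP36L2 (1.26), and TMEM173 (2.10), CGAS (0.70) and IRF7 (-0.68), complete the set.

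In 13 of 164 groups of 4 libraries, 1 library lay far from the other 3; chance alone flags about 1 group in 20. Among the cytokines, CXCL8 was 381 CPM in SUM159PT siYES1 replicate 1, with the others at 322 to 330. CXCL1 was 2.28 CPM in MDA-MB-231 siNS replicate 4 (others 3.26 to 3.44) and 1.18 CPM in SUM159PT siYES1 replicate 2 (others 0.454 to 0.538). IL1B was 0.475 CPM in MDA-MB-231 siYES1 replicate 4 (others 0.0539 to 0.0584), and CCL20 was 0.108 CPM in siYES1 replicate 2 of that line, with the others at 0.

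The remaining 8 were pathway genes. In MDA-MB-231, NFKB2 was 189.9 CPM in siYES1 replicate 2 (others 179 to 181), TNFAIP3 12.8 CPM in siNS replicate 1 (others 13.8 to 13.9), TAB2 74.4 CPM in siYES1 replicate 3 (others 71.7 to 72.2) and HAX1 57.5 CPM in siYES1 replicate 1 (others 63.9 to 64.7). In SUM159PT, MAP3K14 was 16.7 CPM in siYES1 replicate 2 (others 11.1 to 11.9), TMEM173 0.441 CPM in siYES1 replicate 4 (others 1.61 to 1.70), ICAM1 73.5 CPM in siNS replicate 1 (others 119 to 122) and HNRNPD 302.6 CPM in siNS replicate 1 (others 166 to 187).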

How the results depend on the processing

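Of 19 called results of the 10 genes over the 4 comparisons, 18 kept their direction and their call in every alternative that gave a value; the other is CXCL1 in MDA-MB-231. Leaving out 1 library at a time gave 4 to 4 called genes in MDA-MB-231, 3 to 5 in SUM159PT, 3 to 4 in the difference between lines and 9 to 9 between the siNS groups. The 5 came without SUM159PT siNS replicate 1, where CXCL2 and IL1A were added. IL1B in the difference was also called with no filter (edgeR adjusted p = 0.02499) and by DESeq2 (adjusted p = 0.04173). No sign of pairing by replicate number was seen. For each gene the group mean of log2 CPM was subtracted, and the remaining deviations of siYES1 and siNS libraries were correlated. For same-numbered libraries these correlations ran from -0.124 to 0.0328 in MDA-MB-231 and from -0.0679 to 0.0871 in SUM159PT. In turn, 1 of 8 and 2 of 8 libraries correlated best with their own number. With the replicate block the counts of called genes were 4, 3, 3 and 9, as without it; CCL20 between the siNS groups was -9.11 with the block and -5.97 without it.

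Signs changed only for genes that were not called. With limma-voom CXCL3 in MDA-MB-231 was 0.0013 and LIF in the difference -0.0026. With total counts LIF was -0.13, RELA -0.032, NFKBIA -0.12 and ICAM1 -0.16 in SUM159PT, and NFKBIA was -0.034 in MDA-MB-231, where the joint fit gave -0.043. ICAM1 in SUM159PT was -0.0053 at a mean of 1 CPM. Leaving out libraries gave -0.27 to 0.043 for CXCL2, -0.32 to 0.089 for CXCL3 and -0.019 to 0.052 for NFKBIA in MDA-MB-231; -0.46 to 0.28 for CXCL1, -0.52 to 0.0064 for CXCL3, -0.11 to 0.20 for LIF and -0.15 to 0.066 for ICAM1 in SUM159PT; and -0.12 to 0.16 for LIF, -0.13 to 0.37 for CXCL3 and -3.06 to 0.10 for CCL20 in the difference.

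Total counts moved the median of all genes by -0.17 in SUM159PT and 0.22 in the difference. Calls that were higher made up 25% of all calls under total counts and 48.2% in the main fit in SUM159PT, and 67% under total counts and 36.5% in the difference. Lists moved in 5 cases. In MDA-MB-231 they were subunit and IkB genes without siNS replicate 1 (6 rose, 3 fell) and RNA sensors in the joint fit (1 rose, 2 fell). In SUM159PT feedback inhibitors moved under total counts (3 rose, 4 fell) and in the joint fit (6 rose, 1 fell). Decay regulators moved there without siNS replicate 1 (4 rose, 6 fell). Calls of TLR3, HNRNPD, TRAF1 and IRF7 were lost under some of these. Causes were not tested.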

Other observations

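A few genes outside the named set were chosen after their values were seen. Of these, SOD2 and IER3 had changes of opposite sign in the lines. SOD2, a mitochondrial antioxidant enzyme and NF-kB target, averaged 41.1 CPM with siYES1 and 70.4 CPM with siNS in MDA-MB-231 (log2 fold change -0.72) and rose by 0.43 in SUM159PT, a difference of -1.25 between lines (edgeR adjusted p = 7.748e-08). IER3, an early response gene, had log2 fold changes of -0.38 and 0.51, with a difference of -0.98. PLAU, the urokinase gene, fell in both, by 0.67 and 1.25. IL6ST, which encodes gp130, also fell in both lines, by 0.47 in MDA-MB-231 and by 0.56 in SUM159PT.

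Over the 16 libraries and 11459 coding genes tested in both lines, the profiles closest to IL6 were those of AP2A2 (Pearson r = 0.964), ULBP2 (0.961) and CCND1 (0.961), and those closest to CXCL8 were PON2 (0.998), ME1 (0.997) and EMB (0.997). The libraries form clusters by line and by siRNA, so these values describe likeness only. Within the 8 libraries of MDA-MB-231 and the 8 of SUM159PT in turn, r with IL6 was 0.982 and 0.931 for AP2A2, 0.991 and 0.877 for ULBP2, and 0.991 and 0.959 for CCND1. With CXCL8 it was 0.656 and 0.967 for PON2, 0.882 and 0.843 for ME1, and 0.767 and 0.791 for EMB.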
